A study of Danio rerio with 4 samples.

Results

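Stabilins, the mannose receptor, the Lyve1 proteins and the adaptor Dab2 belong to the endocytic equipment of venous and lymphatic endothelium. The genes stab1, stab2, mrc1a, lyve1a, lyve1b and dab2 were taken as a named list of symbols with no threshold on a measured value, and all 6 were found among the 29027 gene rows of each library. RNA sequencing covered endothelial cells sorted from dissected trunks and tails of zebrafish embryos at 47 hours post fertilization. Every embryo carried the kdrl:EGFP endothelial reporter and the lyve1:DsRed reporter, and only cells positive for both fluorophores were kept. The tie1 Homo group comprised 2 libraries from homozygous tie1 mutants (tie1-/-) in which blood was seen to flow. The tie1 WT/Het group comprised 2 libraries from their siblings, wild-type and heterozygous embryos together (tie1+/?), so a heterozygous effect lies within the control group. The labels do not say how many embryos were pooled or whether the 2 libraries of a group came from separate clutches. The p-values therefore speak for these libraries only. Those of limma rest on a variance taken from the trend over genes, not on the spread of each gene's own replicates. Because the sort required lyve1:DsRed fluorescence in both groups, the level of lyve1b or lyve1a was measured among cells already chosen for activity of a lyve1 reporter.

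Scavenger endothelial cells clear macromolecules and waste from blood and lymph. Stabilins are large transmembrane receptors that bind hyaluronan, modified lipoproteins and other polyanionic ligands, the mannose receptor binds glycoproteins through lectin domains, and Lyve1 is a hyaluronan receptor of the link-domain family. Ligand-bound receptors enter the cell in clathrin-coated pits, to which Dab2 couples cargo through the adaptor complex AP-2. In zebrafish, these genes are widely used to mark veins and lymphatic vessels. The receptor tyrosine kinase Tie1, whose gene is mutated in the Homo group, acts with the angiopoietin receptor Tek in vessel growth.

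The 4 libraries differed in scale and background, and each value below has to be read beside that. The rows summed to 736606 to 813042 TPM (the length-corrected unit of transcript level in the tables) in the siblings and to 481065 to 602394 TPM in the mutants. A set of 322 genes of sensory cells and lens, for which no endothelial expression is presumed, had sibling medians of 2.26 and 3.66 TPM and mutant medians of 8.38 and 11.1 TPM. Their 95th percentile, called the background limit here, was 3.93 and 6.37 TPM in WT/Het replicates 1 and 2 and 13.8 and 18.6 TPM in Homo replicates 1 and 2. Genes above that limit numbered 9996 and 9141 in the siblings and 4919 and 3155 in the mutants. Over genes with a mean of at least 1 TPM, log2(TPM + 1) correlated with r = 0.886 between siblings and 0.649 between mutants. Homo replicate 1 correlated with WT/Het replicates 1 and 2 at 0.737 and 0.759, above its correlation with Homo replicate 2. For Homo replicate 2 these values were 0.565 and 0.602. The siblings had 61.0 and 31.0 TPM of tie1 itself and the mutants 16.7 and 10.2 TPM, the last of these under the background limit (log2 fold change -1.66 with SE 0.78, adjusted p = 0.0605 by limma). Of 19 venous and lymphatic markers, which include the 6 members, 15 exceeded the limit in both sibling libraries. Among them were flt4, nr2f2 and ephb4a, at 39.5 to 70.5 TPM, whereas prox1a exceeded it in WT/Het replicate 1 alone (7.19 and 2.21 TPM). At an adjusted p under 0.05 by limma, flt4, aplnra, mafbb, stab2 and dab2 were lower and prox1a, tbx1 and osr2 higher. The shares over all tested genes were 4.43% lower and 44.6% higher. Among genes with a mean of at least 20 TPM, 28.1% were called lower. Of the 3 markers higher, 2 exceeded the background limit in neither mutant library, tbx1 being the exception. Arterial markers were also present: 5 of 9 exceeded the limit in both sibling libraries, with cldn5b at 334 and 132 TPM. By limma cldn5b was called lower (20.7 and 39.1 TPM in the mutants) and efnb2a, notch1b and tbx20 higher, beside the shares given above. Of those higher, only efnb2a exceeded the limit in a mutant library.

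The mean level of each of the 6 genes was lower in the tie1 mutants, with dab2 furthest down at 13.6% of its sibling mean and stab1 least at 55.3%. By limma, fitted on log2(TPM + 1) over 28301 genes, dab2 and stab2 fell, while lyve1a, lyve1b, mrc1a and stab1 did not pass an adjusted p-value of 0.05. Among all tested genes, 4.43% were called lower and 44.6% were called higher. Most of the abundant genes were also lower: of the 3987 genes with a mean of at least 20 TPM, a class that holds all 6 members, 28.1% were called lower and 1.4% higher. A share of 2 in 6 was close to that of the abundant class. The median log2 fold change was -1.93 for the 6 genes, 1.17 over all tested genes and -1.33 over the abundant class, and 5 of the 6 lay under the median of that class. In sorted bulk cells, fewer cells that express a gene and less of its RNA per cell cannot be told apart. Nor can either be told apart from the differences in scale and background, which ran along with genotype in these 4 libraries.

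**Figure D1:**
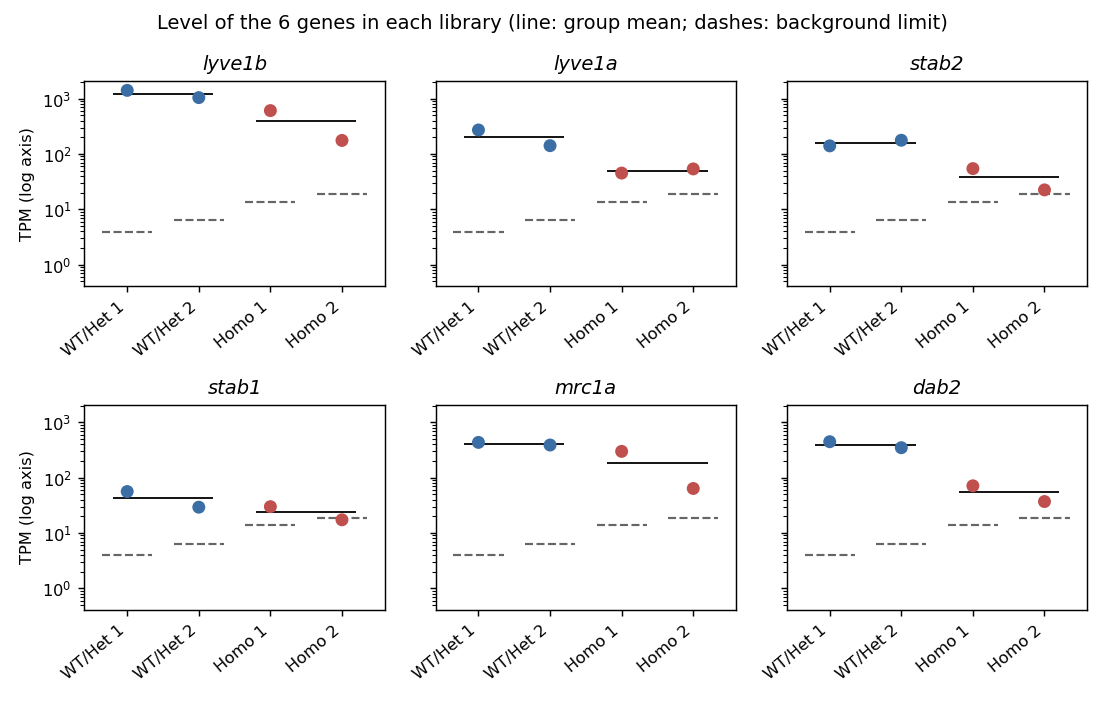
Level of each gene in TPM (log axis) in the 4 libraries, with siblings in blue and mutants in red, the group mean as a line and the background limit of each library as dashes. The panels other than stab1 show mutant points under both sibling points, stab1 itself shows overlap, and the Homo replicate 2 points of stab1 and stab2 lie near the limit of 18.6 TPM.

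Among the hyaluronan receptors, lyve1b was the most abundant member in every library. The siblings had 1410 and 1044 TPM of lyve1b and the mutants 608 and 175 TPM. The groups did not overlap, but the mutant libraries were 3.46-fold apart and the sibling libraries 1.35-fold. Mean levels were 1227 ± 259 and 391 ± 306 TPM (SD, n = 2 each), a log2 fold change of -1.89 (SE 0.92) that did not pass in limma (adjusted p-value 0.0708). Its log2 fold change was -1.0 without Homo replicate 2 and -2.78 without Homo replicate 1. Without WT/Het replicate 1 it was -1.67 and without WT/Het replicate 2 it was -2.11. Whether lyve1b passed depended on the library left out. Each of these fits left a group with a single library, whose spread was taken from the other libraries.

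The paralog lyve1a differed least of the 6 genes between the mutant libraries. Siblings had 271 and 141 TPM of lyve1a, and mutants had 45.1 and 53.6 TPM. All mutant values were lower, and here the siblings were further apart (1.92-fold) than the mutants (1.19-fold). The means were 206 ± 92.1 and 49.3 ± 6.01 TPM (SD, n = 2 each), with a log2 fold change of -1.97 (SE 0.93, adjusted p = 0.0632 by limma). Unlike the other members, lyve1a was no lower in Homo replicate 2 than in Homo replicate 1. Without Homo replicate 1 the log2 fold change was -1.85 and without Homo replicate 2 it was -2.09. Without WT/Het replicate 1 it was -1.5 and without WT/Het replicate 2 it was -2.44. Whether lyve1a passed depended on the library left out, and each of these fits left a group with a single library.

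Within a library, the lyve1a to lyve1b ratio was 0.192 and 0.135 in the siblings. In the mutants it was 0.0742 in replicate 1 and 0.305 in replicate 2, on either side of the sibling values. A common direction for the balance of the paralogs was therefore not seen.

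For the stabilin gene stab2, the sibling libraries had 139.9 and 177 TPM, against 54.3 and 22.4 TPM in the mutant libraries. Both mutant values were lower, and that of replicate 2 stood at 1.205 times its background limit. The means were 158 ± 26.0 and 38.4 ± 22.6 TPM (SD, n = 2 each), and stab2 fell by 2.14 on the log2 scale (SE 0.91, adjusted p = 0.0426 by limma). This call depended on the library left out. The log2 fold change was -2.3 without WT/Het replicate 1 and -1.97 without WT/Het replicate 2. It was -2.76 without Homo replicate 1 and -1.52 without Homo replicate 2. Each of these fits left a group with a single library, whose spread was taken from the other libraries.

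Of the members, stab1 was the least abundant in every library. Sibling levels of stab1 were 56.0 and 29.2 TPM, and mutant levels were 29.9 and 17.3 TPM. Homo replicate 1 was above WT/Het replicate 2, so the groups overlapped, and Homo replicate 2 was under its background limit. With means of 42.6 ± 19.0 and 23.6 ± 8.90 TPM (SD, n = 2 each), the log2 fold change was -0.81 (SE 0.81, adjusted p = 0.385 by limma). The stab1 to stab2 ratio within a library was 0.401 and 0.165 in the siblings and 0.550 and 0.772 in the mutants. When the median of the 322 background genes was first taken from each value, it was 0.391 and 0.148 against 0.468 and 0.549.

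The mannose receptor gene mrc1a had 434 and 389 TPM in the siblings, the closest agreement among the members (1.12-fold). In the mutants it had 298 TPM in replicate 1 and 63.7 TPM in replicate 2, the widest gap among the members (4.68-fold). Both mutant values were lower than those of the siblings, yet replicate 1 retained 72.6% of the sibling mean and replicate 2 retained 15.5%. The means were 411 ± 31.7 and 181 ± 166 TPM (SD, n = 2 each), with a log2 fold change of -1.56 (SE 0.95, adjusted p = 0.146 by limma). It was -0.46 without Homo replicate 2 and -2.67 without Homo replicate 1, and either left a single mutant library whose spread was taken from the other libraries. Its paralog mrc1b, 1 of the listed scavenger receptors, was far lower, with 17.9 and 17.4 TPM for siblings and 9.55 and 11.5 TPM for mutants, the latter under the background limits.

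For the endocytic adaptor gene dab2, sibling levels were 446 and 348 TPM and mutant levels 71.2 and 37.0 TPM. The mutant values were far under those of the siblings and remained 5.15 and 1.99 times their background limits. The means were 397 ± 69.6 and 54.1 ± 24.2 TPM (SD, n = 2 each), a 7.34-fold difference, and dab2 fell by 2.92 on the log2 scale (SE 0.95, adjusted p = 0.0173 by limma). The call depended on the library left out. The log2 fold change was -2.74 without WT/Het replicate 1 and -3.09 without WT/Het replicate 2. It was -3.38 without Homo replicate 1 and -2.45 without Homo replicate 2. Each of these fits left a group with a single library, whose spread was taken from the other libraries.

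Taken one at a time by a two-sided exact permutation test, the 5 members other than stab1 reached p = 0.333, the smallest that 2 libraries against 2 can give, and stab1 had an exact p of 0.667. For these 5 members, the highest mutant value was under the lowest sibling value. The same held for 12.0% of all tested genes and for 63.5% of those with a mean of at least 20 TPM.

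**Figure D2:**
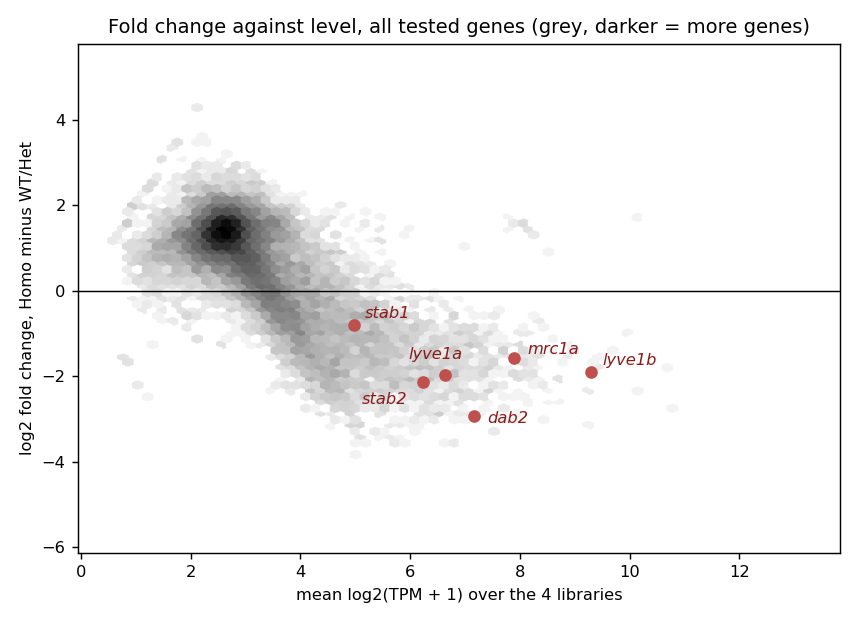
Log2 fold change (Homo minus WT/Het) against mean log2(TPM + 1) over the 4 libraries, for all 28301 tested genes in grey and the 6 genes in red. The cloud lies above 0 at low levels and below 0 at high levels, and the 6 genes lie within its falling arm, from -0.81 for stab1 to -2.92 for dab2.

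Because the libraries differed in scale, the make-up of the group within each library was examined next. Together the 6 genes accounted for 0.339% and 0.289% of the listed TPM in the siblings and for 0.184% and 0.0768% in the mutants. Within that sum, lyve1b held 51.1% and 49.1% in the siblings and 54.9% and 47.5% in the mutants, so its share overlapped between groups. The share of dab2 was 16.2% and 16.3% in the siblings and 6.43% and 10.01% in the mutants, under both sibling values in each mutant library. The share of mrc1a was 15.7% and 18.3% in the siblings, 27.0% in Homo replicate 1 and 17.2% in Homo replicate 2. That of stab1 was higher in the mutants (2.70% and 4.68%) than in the siblings (2.03% and 1.37%), with the reservation that its Homo replicate 2 value was under the background limit. These shares include background, which was higher in both mutant libraries. After subtraction of the background median the stab1 to lyve1b ratio overlapped between the groups (0.0382 and 0.0246 in the siblings, 0.0359 and 0.0378 in the mutants). In the siblings, lyve1b led, dab2 and mrc1a followed at similar levels in an order that differed between the libraries, lyve1a and stab2 came next with their order also differing, and stab1 was last. In both mutant libraries mrc1a stood above dab2.

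**Figure D3:**
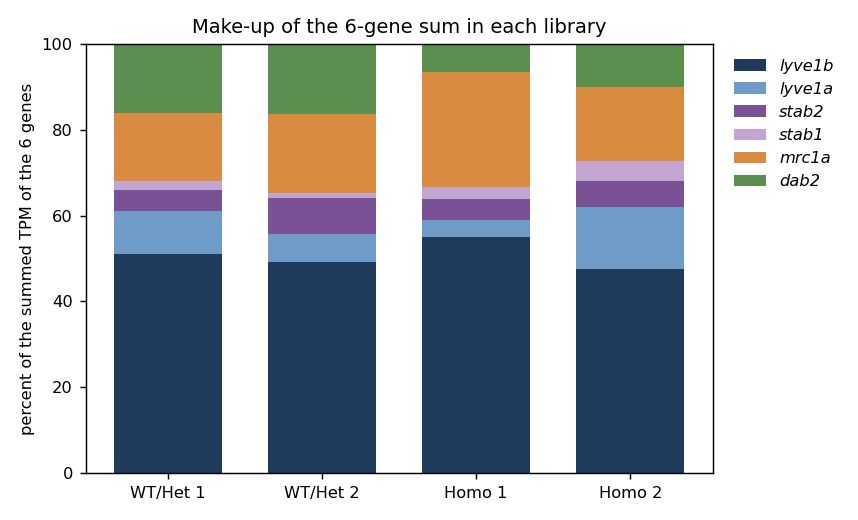
Share of each gene in the summed TPM of the 6 genes, as stacked bars in percent for each library. The dab2 segment is 16.2% and 16.3% in the siblings and 6.43% and 10.01% in the mutants, while the lyve1b segment stays between 47.5% and 54.9%.

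A ratio to another gene of the same library does not depend on that library's scale, and shows unequal change only. The first reference was kdrl, the gene of the VEGF receptor whose promoter drives the sorted EGFP reporter. Siblings had 952 and 1009 TPM of kdrl, and mutants had 322 and 47.2 TPM. The mrc1a to kdrl ratio was 0.456 and 0.385 in the siblings and 0.926 and 1.35 in the mutants. The lyve1b to kdrl ratio was 1.48 and 1.03 in the siblings and 1.88 and 3.72 in the mutants. Both were higher in the mutants, as was the ratio of stab1, but so were the ratios of 62.3% of the genes with a mean of at least 20 TPM. The ratios of stab2, lyve1a and dab2 to kdrl overlapped between the groups. For dab2 the ratio was 0.469 and 0.345 in the siblings, 0.221 in Homo replicate 1 and 0.784 in Homo replicate 2.

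With lyve1b as the reference, dab2 had a ratio of 0.316 and 0.3332 in the siblings and of 0.117 and 0.211 in the mutants. Before background subtraction, dab2 was the only member whose ratio to lyve1b was lower in both mutant libraries. The same held for 8.68% of the genes with a mean of at least 20 TPM. After subtraction of the background median the dab2 values were 0.315 and 0.331 against 0.105 and 0.158. So treated, the stab2 to lyve1b ratio was also lower in both mutants, at 0.0978 and 0.166 against 0.0767 and 0.0689. Other endothelial references, added after the values were seen, gave the same order for dab2. Of these, aqp1a.1 and egfl7 had fallen less than dab2 (log2 fold changes -1.92 and -2.2 against -2.92), as had lyve1b (-1.89). The dab2 order against these references and pecam1 therefore follows from their smaller falls and adds no separate support. The dab2 ratio was 0.245 and 0.3327 against 0.115 and 0.172 for aqp1a.1 (lower in both mutants for 7.43% of the abundant genes), 0.490 and 0.533 against 0.272 and 0.348 for egfl7 (5.04%), and 1.06 and 1.45 against 0.422 and 0.585 for pecam1 (12.6%). After background subtraction, stab2 was also lower in both mutants against pecam1 and, by a small margin in Homo replicate 1, against aqp1a.1. Against egfl7 it was not. With kdrl, whose log2 fold change was -2.97, the dab2 order was not met in Homo replicate 2, where kdrl itself was at 4.81% of its sibling mean. The mrc1a to dab2 ratio was 0.972 and 1.12 in the siblings and 4.19 and 1.72 in the mutants.

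**Figure D4:**
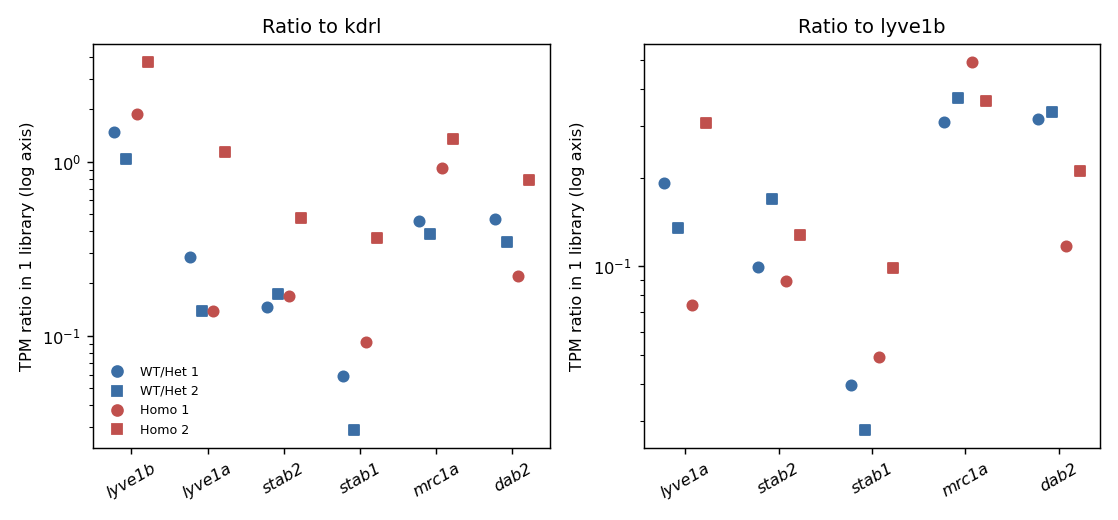
TPM ratio of each gene to kdrl (left) and to lyve1b (right) within each library, on log axes, with siblings in blue, mutants in red, circles for replicate 1 and squares for replicate 2. In the right panel both red dab2 points, 0.117 and 0.211, lie under the blue points, and in the left panel mrc1a, lyve1b and stab1 have both red points above the blue ones.

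The rest of the endocytic route was read from lists of genes written by function. Of 59 listed genes for clathrin adaptors and endocytosis, 53 were in the tables. By limma 6 of these were called lower and 18 higher, beside 4.43% lower and 44.6% higher over all tested genes. All 6 were among the 26 that exceeded the background limit in both sibling libraries, and 28.1% of the abundant class were called lower. Those lower were clta, the clathrin light chain; ap2m1a and ap2m1b, cargo-binding subunits of AP-2; hspa8, the chaperone that strips the clathrin coat; rab5c, a GTPase of early endosomes; and arrb2b, an arrestin adaptor. For clta, sibling levels were 1566 and 1189 TPM, against mutant levels of 554 and 130.3 TPM (log2 fold change -2.34 with SE 0.92, adjusted p = 0.0319 by limma). For ap2m1a it was 789 and 471 TPM against 132 and 38.4 TPM (log2 fold change -3.08 with SE 0.95, adjusted p = 0.0147 by limma). Both genes had all mutant values under all sibling values, as had 16 of the 53 on the list. That held for 12.0% of all tested genes and for 63.5% of those with a mean of at least 20 TPM. The same was seen for hspa8 (1382 and 868 TPM against 443 and 99.6 TPM, adjusted p = 0.0316 by limma), for arrb2b (298 and 309 TPM against 74.5 and 42.5 TPM, 0.0314) and for rab5c (228 and 229.9 TPM against 125 and 12.2 TPM, 0.0260). The rab5c value was at 54.6% of the sibling mean in Homo replicate 1 and under the background limit in Homo replicate 2. Another early endosome GTPase gene, rab5aa, did not pass (134 and 113 TPM against 108 and 17.6 TPM, limma adjusted p-value 0.155). Its Homo replicate 2 value was also under the limit. Of the 18 genes higher, 16 did not exceed the background limit in either mutant library. The median log2 fold change of the background genes themselves was 1.46. The list's median log2 fold change was 0.62.

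Of 41 listed scavenger and lipoprotein receptors, 32 were in the tables, and 0 were called lower and 16 higher by limma (4.43% and 44.6% over all tested genes). Of these 16, 13 were at or under the limit in both mutant libraries, the exceptions being lrp1ba, sort1a and cd209. The gene clec14a, a C-type lectin gene of endothelium and the most abundant of the list, was at 445 and 281 TPM in siblings, at 163 and 66.1 TPM in mutants, and did not pass (log2 fold change -1.76 with SE 0.95, adjusted p = 0.103 by limma). The scavenger receptor gene scarf1 had 40.5 and 31.4 TPM against 16.9 and 16.3 TPM (limma adjusted p-value 0.230), the last of these under the background limit. A receptor gene for the sorting of lysosomal enzymes, m6pr, had 38.8 and 26.7 TPM in siblings and 9.31 and 12.6 TPM in mutants (0.0753). Both mutant values of m6pr were under their background limits. The groups overlapped for fcer1gl, which encodes an Fc receptor chain (45.5 and 15.3 TPM against 34.1 and 35.2 TPM), and for lrpap1, a chaperone of lipoprotein receptors (10.8 and 19.6 TPM against 23.3 and 13.5 TPM). The median log2 fold change of the list was 1.29. It held few expressed genes, with 10 of 32 exceeding the limit in each sibling library, against all 6 of the members.

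Of 37 genes for synthesis, binding and breakdown of hyaluronan, 34 were in the tables, with 1 called lower and 14 higher by limma. The shares were 4.43% lower and 44.6% higher over all tested genes, and 28.1% lower in the abundant class. All of the 14 were at or under the limit in both mutant libraries. The 1 lower was hexb, a subunit of the lysosomal hexosaminidase, with 663 and 464 TPM for siblings and 186 and 35 TPM for mutants (log2 fold change -2.76 with SE 0.95, adjusted p = 0.0211 by limma). The partner subunit gene hexa had 57.4 and 64.7 TPM against 22.1 and 14.5 TPM, the last of these under the background limit, and did not pass (limma adjusted p-value 0.0672). The link protein gene hapln3 and the hyaluronidase gene hyal2b did not pass either (limma adjusted p-values 0.157 and 0.139). The groups overlapped for hyal2b and for the proteoglycan gene vcanb. Both mutant values of hyal2b (6.45 and 9.49 TPM) and the Homo replicate 2 value of hapln3 (8.58 TPM) were under their background limits. The list had a median log2 fold change of 0.91.

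Marker lists of endothelium and of other cells were read beside these values. Of 19 endothelial markers, 10 were called lower and 0 higher by limma, where 4.43% of all tested genes and 28.1% of the abundant class were called lower, and their summed level was 4328 to 5940 TPM in the siblings and 725 to 1941 TPM in the mutants. Stabilins, mrc1 and dab2 are also expressed by macrophages. The 15 macrophage and leukocyte markers summed to between 709 and 716 TPM in the siblings, against 407 and 883 TPM in the mutants. Within that list the lysozyme gene lyz had 319 to 344 TPM in the siblings and 21.8 to 35.9 TPM in the mutants, while mfap4 had 137 to 180 TPM and 233 to 680 TPM. Of the 15 markers, 6 exceeded the background limit in both sibling libraries and 2 in both mutant libraries. The markers csf1ra and marco exceeded it in 0 of 4 libraries, whereas mfap4 exceeded it in all 4. For mpeg1.1 (7.75 and 12.0 TPM in siblings, 37.2 and 9.64 TPM in mutants), spi1b and lcp1 it was 3 of 4. By limma 3 of the 15 were called lower (lcp1, coro1a and lyz) and 3 higher (marco, csf1ra and cd74b). The shares over all tested genes were 4.43% and 44.6%, and 28.1% of the abundant class were called lower. The 3 lower exceeded the limit in both sibling libraries, and the 3 higher exceeded it in neither mutant library. Kidney tubules use Dab2 with the receptors encoded by lrp2a and cubn, and 0 of 12 pronephros markers exceeded the limit in both libraries of either group. Erythroid markers summed to 3182 to 3744 TPM in the siblings and 539 to 1446 TPM in the mutants. Most of this was hbbe1.1, at 2443 to 3126 TPM in the siblings and 369 to 1207 TPM in the mutants. By limma 2 of 8 erythroid markers were called lower and 3 higher. Of those higher, only slc4a1a exceeded the limit in a mutant library. Skeletal muscle markers summed to 489 to 1111 TPM and 241 to 341 TPM, with 2 of 12 called lower and 2 higher. Epidermal markers summed to 137 to 687 TPM and 136 to 206 TPM, with 2 of 9 called lower and 2 higher. Over all tested genes 4.43% were called lower and 44.6% higher. The part of these cells in the levels of the 6 genes was not tested.

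The genes most like each member over the 4 libraries were sought among the 1788 genes with a mean of at least 50 TPM, by Euclidean distance between log2(TPM + 1) values centred on their own mean. For dab2 they were sf3b6, ywhaz and mcm2 (distances 0.07, 0.16 and 0.18), and for lyve1b they were rpl18, ponzr1 and eif2b2 (0.04, 0.06 and 0.08). Those for mrc1a were puf60b, tma7 and rps7 (0.11, 0.12 and 0.13), and those for stab1 were qkia, med20 and mrps18b (0.03, 0.08 and 0.13). For stab2 the distances were larger, with hn1b, LYAR and me3 at 0.21, 0.22 and 0.23. The nearest gene to lyve1a was erg, at a distance of 0.12, with 109 and 61.4 TPM for siblings and 17.2 and 21.0 TPM for mutants, followed by marcksb and chmp4bb (0.21 and 0.29). With 4 libraries these distances describe the pattern and carry no test, and the nearest genes included ribosomal protein genes as well as an endothelial transcription factor.

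The log2 fold change of each member stayed negative under every setting, whereas its size varied. The calls of the members other than stab1 changed with the setting. Filter, intensity trend, moderation and replicate block left every log2 fold change as it was, so those settings do not test its sign. For stab1 it was -0.01 (SE 0.82) after rescaling over genes above background, which shows no direction. Under quantile normalization stab1 and mrc1a were at -0.22 and -0.21 (SE 0.71 and 0.51). Over the 17 alternative settings the log2 fold change of dab2 ranged from -4.28 to -1.54, that of stab2 from -3.49 to -1.04 and that of lyve1a from -3.34 to -0.58. The range was -3.27 to -0.47 for lyve1b, -2.94 to -0.21 for mrc1a and -2.14 to -0.01 for stab1. Among the 6 members dab2 passed the threshold in 7 of the 17 settings, lyve1b in 4, stab2 and lyve1a in 3 each, mrc1a in 2 and stab1 in 0. Rescaling by the median of ratios over all genes moved the median log2 fold change of all genes from 1.17 to 0.03. Relative to the median of all genes, dab2 was at -4.08 as deposited and at -4.31 after this rescaling, and stab1 was at -1.97 and -2.17. The median of all genes as deposited, 1.17, lay near that of the background genes, 1.46. Other settings gave smaller offsets for dab2 and stab1. They were -1.59 and -0.26 under quantile normalization, -2.12 and -0.46 after background subtraction, and -1.8 and -0.2 with rescaling added.

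**Figure D5:**
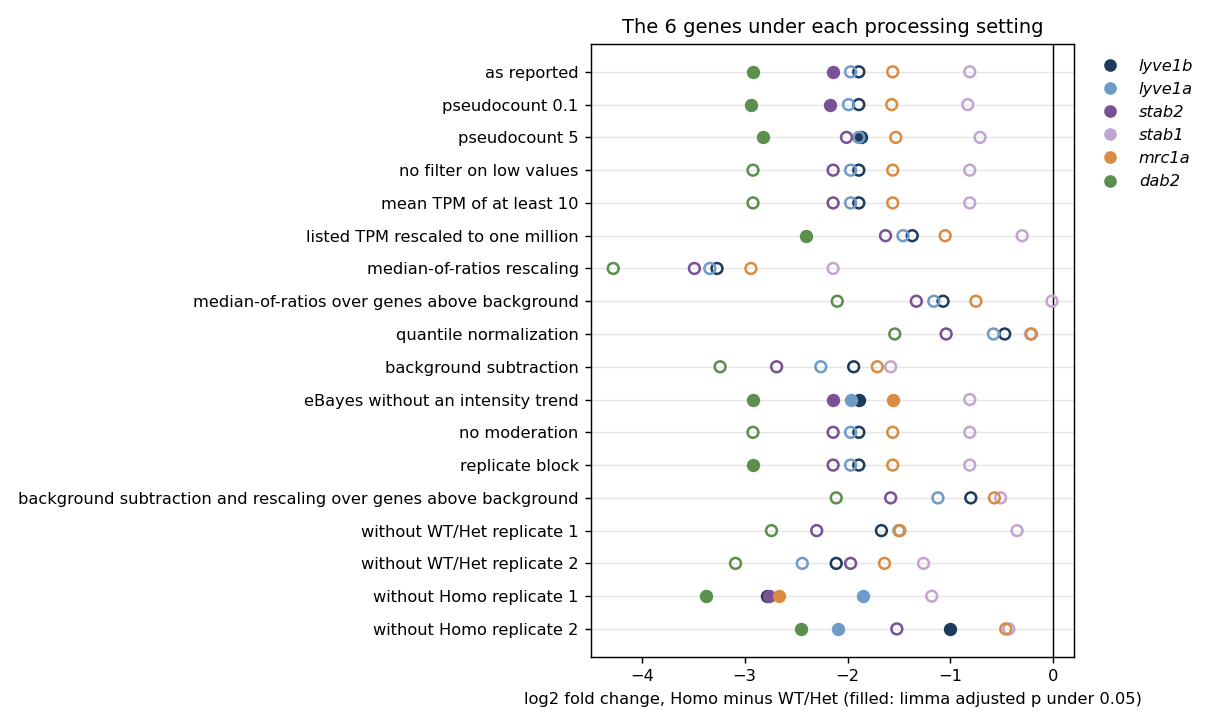
Log2 fold change of the 6 genes (x axis, Homo minus WT/Het) under the reported fit and each of 17 alternative settings, with filled points for limma adjusted p-values under 0.05. All points lie at or left of 0, dab2 lies furthest left in every setting, and stab1 reaches -0.01 when rescaled over genes above background.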

How the data were processed

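RNA sequencing libraries of sorted zebrafish endothelial cells, 2 per group, were analysed. The authors deposited TPM for each library, as named in the file headers; Trim Galore 0.6.6, cutadapt 2.8, HISAT2 2.2.1, SAMtools 1.7, StringTie 2.1.4 and the build GRCz11 are listed in the submitters' processing notes, and the annotation is not given in the sources used here. RNA was amplified with a SMART-Seq v4 kit, per the labels' protocols. The rows sum to less than 1000000 TPM per library and keep no read depth, so no counting interval was computed. Genes are named as in the tables. Sequences and coordinates were not used here.

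Groups came from the sample titles. Mutants were compared with siblings in limma 3.58.1 (R 4.3.3) on log2 values of TPM + 1, group being the single term, for genes with a mean of at least 1 TPM, by eBayes with an intensity trend and two-sided Benjamini-Hochberg adjusted p-values with a threshold of 0.05. Fold changes on this scale understate the change of low genes. With 2 residual degrees of freedom, moderation replaced each gene's own variance by the trend, so SE and p do not measure the spread of that gene's own replicates. Exact permutation tests used scipy 1.17.1. The fit was tested on simulated data with independent noise and no difference in scale or background between libraries. The simulation therefore does not vouch for the calls made here.

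The members were set by symbol, with no threshold on a measured value; members, lists and tests were nonetheless chosen with earlier results of these data known. From each of 3 function lists, the 6 genes most abundant in the siblings could be named, besides the genes called lower and the exceptions at the limit; single cell type markers, the endothelial references aqp1a.1, egfl7 and pecam1 and the class of at least 20 TPM were chosen after values were seen. Alternatives changed the pseudocount, filter, scaling, background, moderation, replicate block and the libraries included.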

Additional observations from a re-analysis of the deposited data

How the results depend on the processing

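The fitted calls depended on the processing. The 12618 genes higher and 1255 lower became 41 and 5 with no filter on low values, 5 and 58 with a filter of 10 TPM, 155 and 89 after rescaling over genes above background, 8103 and 1986 with no intensity trend, and 7 and 1 with no moderation. Rescaling to a common sum of 1000000 left 718 lower. Counts were 0 and 0 after median-of-ratios rescaling, quantile normalization, background subtraction, and background subtraction with rescaling, the last chosen after seeing the data. At an unadjusted p-value under 0.05 limma then had 1218 higher and 4110 lower, 1335 and 1828, 282 and 2719, and 574 and 1492. Leaving out 1 library gave 521 to 14006 higher and 66 to 1762 lower. The cause was not tested.

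Of the 6 members, 2 were called lower as reported and 0 higher in any setting. Lower calls numbered 5 with no intensity trend, 1 after rescaling to a common sum, 1 with the replicate block, and 0 with no filter, a filter of 10 TPM, either median-of-ratios rescaling, quantile normalization, either background subtraction or no moderation. They ranged from 0 to 5 when 1 library was left out (0 without either sibling library, 3 without Homo replicate 2 and 5 without Homo replicate 1).

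The call of stab2 was lost with a log2 fold change of -2.14 with no filter, a filter of 10 TPM or no moderation (limma adjusted p-values 0.0835, 0.140 and 0.205), -2.01 with a pseudocount of 5 (0.0556), -1.63 after rescaling to a common sum (0.0683), -3.49 after median-of-ratios rescaling (0.202), -1.33 over genes above background (0.115), -1.04 under quantile normalization (0.641), -2.69 after background subtraction (0.243) and -1.58 with rescaling added (0.375). The call of dab2 was lost at -2.92 with no filter, a filter of 10 TPM or no moderation (0.0835, 0.0859 and 0.201), -4.28 after median-of-ratios rescaling (0.183), -2.10 over genes above background (0.0831), -1.54 under quantile normalization (0.435), -3.24 after background subtraction (0.137) and -2.11 with rescaling added (0.277). Calls were gained with no intensity trend by mrc1a at -1.56, lyve1a at -1.97, lyve1b at -1.89 and tie1 at -1.66 (limma adjusted p-values 0.0426, 0.0170, 0.0228 and 0.0353), and by lyve1b at -1.87 with a pseudocount of 5 (0.0475).

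Leaving out 1 library gave log2 fold changes of -3.38 to -2.45 for dab2, -2.76 to -1.52 for stab2, -2.78 to -1.0 for lyve1b, -2.44 to -1.50 for lyve1a, -2.67 to -0.46 for mrc1a, -1.26 to -0.35 for stab1 and -2.14 to -1.19 for tie1, the lone library being assumed to vary like the others.

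Over all 17 alternatives the limma adjusted p-value ranged from 3.20e-04 to 0.641 for stab2, 5.00e-10 to 0.435 for dab2, 2.48e-07 to 0.8998 for mrc1a, 0.0112 to 0.822 for lyve1a, 3.09e-19 to 0.608 for lyve1b, 0.193 to 0.992 for stab1 and 0.0353 to 0.527 for tie1.

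The replicate numbers are shared by the groups but nothing says that they pair the samples, and deviations of same-numbered libraries from their group means correlated with r = 0.130 across genes. With the replicate block, 15263 genes were called higher and 666 lower, stab2 was at -2.14 (limma adjusted p-value 0.0958) and dab2 kept its call (0.0346).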
